A study of Rattus norvegicus with 62 samples.

Results

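The data concern 3 liver enzymes that oxidise small foreign molecules, the cytochrome P450 Cyp2e1 and the flavin-containing monooxygenases Fmo1 and Fmo5, across a 2-stage liver carcinogenesis experiment in rats. They were taken as the probe sets whose single annotated symbol was one of these genes, which gave 3 probe sets for 3 of the 14217 genes with such a probe set: 1367871_at for Cyp2e1, 1387053_at for Fmo1 and 1383248_at for Fmo5. Male Crj:CD(SD)IGS rats received an initiator or its vehicle for 1 or 2 weeks, nothing for 2 weeks, and then the promoter phenobarbital (PB), a drug that induces liver enzymes, at 500 ppm in drinking water for 6 weeks. Liver was sampled from each of 31 animals on 2 occasions, as the piece removed at partial hepatectomy after 1 week of promotion (5w) and as terminal liver (10w), and the 62 RNA samples were hybridised to Affymetrix arrays. The initiated and promoted groups were diethylnitrosamine at 30 mg/kg (DEN30/PB, 4 animals) and 3 mg/kg (DEN3/PB, 5 animals), thioacetamide at 45 mg/kg (TAA/PB, 5 animals), methapyrilene at 100 mg/kg (MP/PB, 5 animals) and acetaminophen at 1000 mg/kg (APAP/PB, 4 animals). The MC/PB group (4 animals) had the initiator's vehicle, methylcellulose, and then phenobarbital, and the MC/water group (4 animals) had methylcellulose and plain water. All groups, MC/water included, had the hepatectomy, so every 10w sample is of regrown liver. The labels do not say which initiator had which course, nor give the animals' ages.

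Cyp2e1 is a haem enzyme of the endoplasmic reticulum that takes electrons from the reductase Por and the cytochrome Cyb5a, and in liver it sits mainly in the hepatocytes around the central vein. It is known for oxidising ethanol and for turning nitrosamines, acetaminophen and thioacetamide into reactive products. Flavin-containing monooxygenases carry a bound flavin, take electrons directly from NADPH and need no separate reductase. Fmo1, a main form of rat liver, oxygenates nitrogen and sulfur atoms, including the sulfur of thioacetamide, whereas Fmo5, as known from the human enzyme, acts poorly on such substrates and inserts oxygen beside ketones.

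The promoter windows of the 3 genes are printed to show how they differ in letters, since the transcripts of all 3 were measured together. Each window runs from 250 bases before to 50 bases after the start that the RefSeq promoter table gives for the gene, 5′ to 3′ on the coding strand, on build GRCr8. For Cyp2e1 and Fmo1 that start is the outer end of the annotated gene, whereas the window of Fmo5 lies inside the annotated gene, downstream of its outer end, so the region at that end is not shown. All 3 genes had an entry, at chr1:205269717-205270016 (+) for Cyp2e1, chr13:77747617-77747916 (-) for Fmo1 and chr2:187910714-187911013 (+) for Fmo5. Capitals mark matches on either strand to 3 short motifs. The first is TATAAA, the core of the TATA box that places the start of transcription in some promoters. The second is ATTGG, the CCAAT box of proximal promoters as read from its other strand. The third is AGGTCA, a single arm of the paired sites that nuclear receptors bind.
Cyp2e1: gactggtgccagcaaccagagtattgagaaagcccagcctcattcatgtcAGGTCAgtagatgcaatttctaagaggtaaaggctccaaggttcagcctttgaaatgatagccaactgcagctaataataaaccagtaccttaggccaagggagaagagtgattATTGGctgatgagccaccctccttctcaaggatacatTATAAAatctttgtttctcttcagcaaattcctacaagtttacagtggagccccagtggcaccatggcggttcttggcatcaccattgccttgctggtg
Fmo1: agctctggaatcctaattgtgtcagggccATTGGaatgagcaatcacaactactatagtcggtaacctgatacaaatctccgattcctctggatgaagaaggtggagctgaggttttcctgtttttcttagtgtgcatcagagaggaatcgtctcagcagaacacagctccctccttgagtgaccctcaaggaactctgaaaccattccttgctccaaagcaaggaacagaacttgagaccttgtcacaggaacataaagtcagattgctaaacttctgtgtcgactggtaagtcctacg
Fmo5: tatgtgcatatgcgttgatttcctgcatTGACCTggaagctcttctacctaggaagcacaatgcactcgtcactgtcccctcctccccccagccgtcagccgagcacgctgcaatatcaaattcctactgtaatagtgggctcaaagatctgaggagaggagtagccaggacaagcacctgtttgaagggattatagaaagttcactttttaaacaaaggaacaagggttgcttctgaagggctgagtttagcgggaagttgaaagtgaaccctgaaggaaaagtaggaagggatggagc
The window of Cyp2e1 held all 3, with the nuclear receptor arm at -200 from that start, the CCAAT box at -86 and the TATA box at -49. The window of Fmo1 held only the CCAAT box, at -221. The window of Fmo5, at its inner start, held only the nuclear receptor arm, on the other strand, at -222. The motifs are common: of 33469 such windows, 14.2% held the TATA box letters, 37.5% those of the CCAAT box and 16.2% those of the receptor arm. The HNF1 arm GTTAAT was searched in the same way and had 0 matches in the 3 windows, while 7.45% of all windows held it. No match and no absence says anything of a factor's binding in these livers.

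The values are linear MAS5 signals on a common scale, with the trimmed mean of each array between 500.23 and 500.27. A signal of 100 on 4 or more arrays was asked of a gene before testing, and all 3 genes passed it on every array. Of the 10 hepatocyte markers, all 9 that were on the array reached 100, and their summed signal lay between 293584 and 460804 over the 62 arrays. The residuals of the fit split the arrays into 2 sets, 30 in array set 1 and 32 in array set 2, with 2 or 3 arrays of each group in each and both arrays of all 31 animals in the same set. The labels do not name this split, but it followed the replicate number. In every group replicates 1 and 3 were in set 1 and replicates 2 and 4 in set 2. Replicate 5 was in set 1 in DEN3/PB and in set 2 in TAA/PB and MP/PB. The first component of the residuals held 11.8% of their variance. A probe set that names several Cyp2b genes, textbook targets of phenobarbital, was 4.14 log2 units higher in MC/PB than in MC/water at 10w and 3.70 at 5w. In whole liver, fewer cells of a type and less RNA per cell cannot be told apart. Within a week, p-values measure the spread between animals, whose number limits the precision. Contrasts between the weeks treated the 62 arrays of the 31 animals as separate, except where the animal is named as a block.

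The 3 genes differed in how far they moved. Over all 62 arrays Cyp2e1 lay between 24961 and 49518 signal units, with the highest array 1.98-fold above the lowest. Fmo1 lay between 546 and 2930, a ratio of 5.37, and Fmo5 between 1701 and 13259, a ratio of 7.79. The 14 group means of Cyp2e1 spanned 0.23 on the scale of log2(signal + 25), which is less than the span of 0.47 of the median gene; 7.2% of 10910 genes had a smaller span. Fmo1 spanned 1.63 and Fmo5 1.72, wider than 98.1% and 98.5% of genes. The spread between animals of a group went the same way, with a within-group SD of 0.20 for Cyp2e1, 0.53 for Fmo1 and 0.40 for Fmo5, against 0.24 for the median gene.

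**Figure D1:**
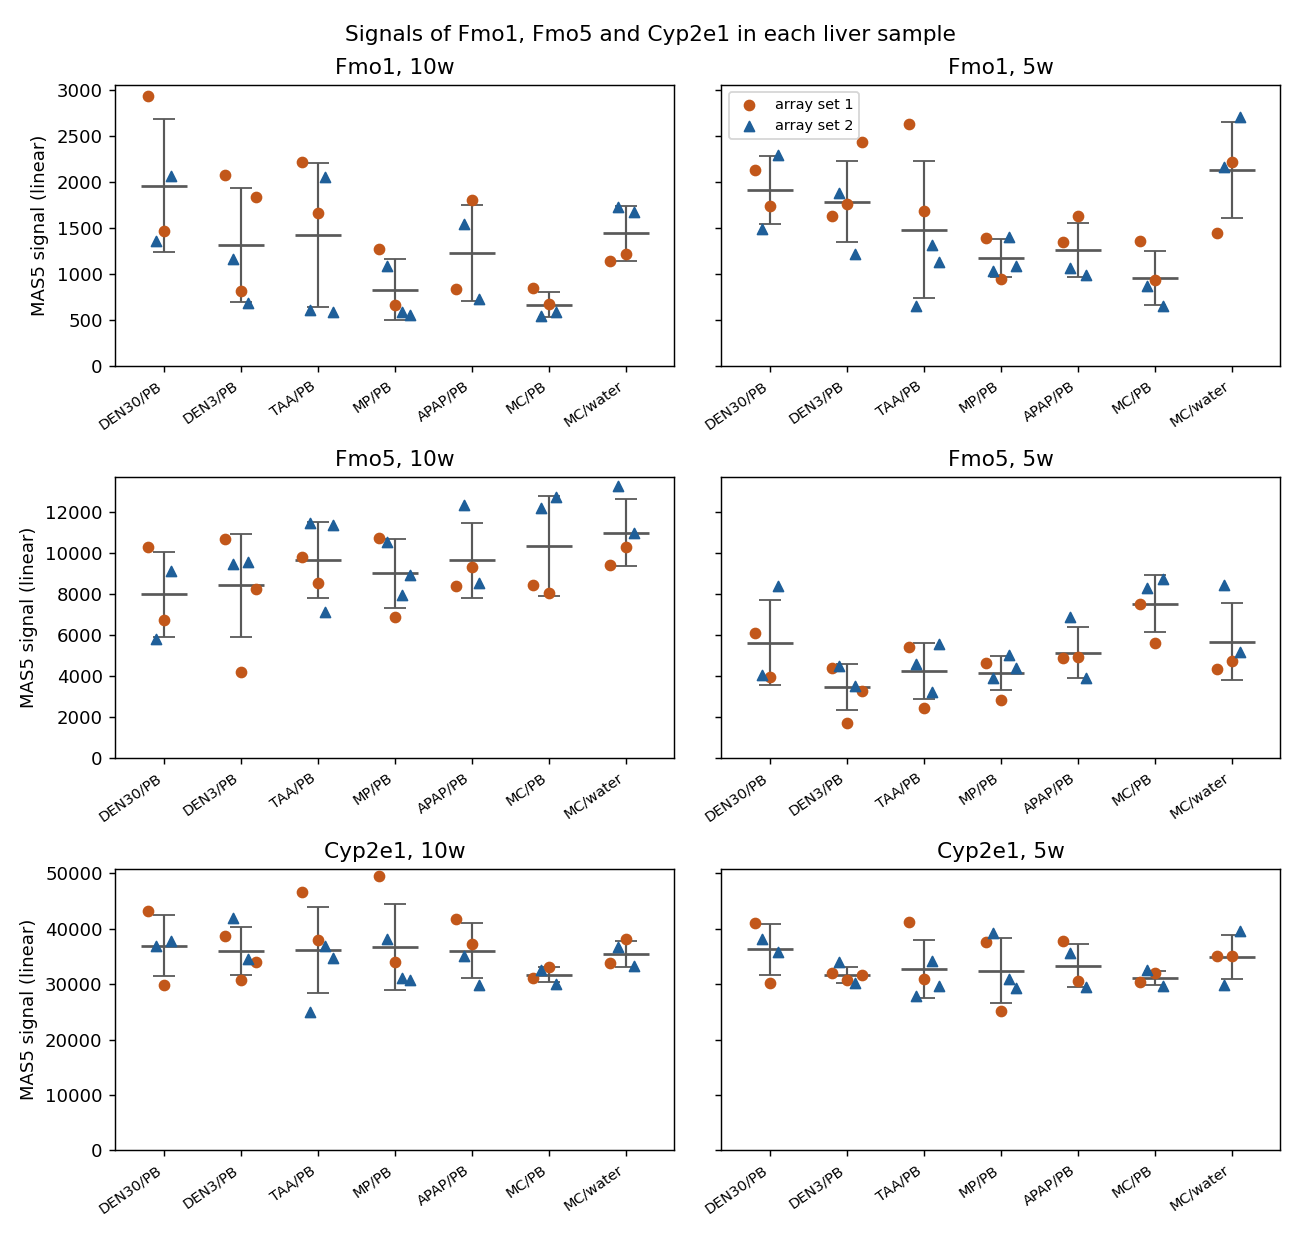
MAS5 signals (linear, from 0) of Fmo1, Fmo5 and Cyp2e1 in each liver sample at 10w (left) and 5w (right), by treatment. Each point is 1 animal, circles for array set 1 and triangles for array set 2, with the group mean as a bar and the SD as whiskers; the Fmo1 points of MC/PB lie below those of MC/water at both weeks, and the Fmo5 points of MC/water lie between 9434 and 13259 at 10w and between 4360 and 8442 at 5w.

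Phenobarbital alone went with less Fmo1 transcript. At 10w the MC/PB livers had 850, 546, 674 and 584 signal units, against 1143, 1728, 1213 and 1671 in MC/water livers. At 5w the MC/PB livers had 1354, 868, 934 and 654, against 1441, 2155, 2219 and 2705 in MC/water livers. The groups did not overlap at either week: every MC/PB liver was below every MC/water liver. Here and below, the share of all genes whose groups were apart was not counted. At 5w Fmo1 fell by 1.15 ± 0.28 (SE) on the log2 scale, or 2.22-fold, with a 95% confidence interval of -1.72 to -0.59 and an adjusted p of 0.0269 in limma. At 10w the difference was -1.08 ± 0.40, with an interval of -1.89 to -0.28 and an adjusted p of 0.17, so it did not pass; fitted on MC/PB and MC/water livers alone, it passed with an adjusted p of 0.00751. The difference between the weeks in this effect was 0.07 ± 0.50, with an interval from -0.94 to 1.08. Of all genes tested, 2.26% were called for phenobarbital at 10w and 1.26% at 5w. Within array set 1 the difference was -0.62 at 10w and -0.66 at 5w, and within array set 2 it was -1.55 and -1.65, so it was negative in both sets and larger in size in set 2. The 5w call was lost without MC/PB replicate 2, 3 or 4 or MC/water replicate 2, 3 or 4 (adjusted p between 0.0578 and 0.122).

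Against MC/PB livers, every initiated group had a higher mean of Fmo1 at both weeks, but no single comparison passed. After the high dose of diethylnitrosamine, the DEN30/PB livers had 2930, 1359, 1467 and 2067 signal units at 10w, all above the 4 MC/PB livers (850, 546, 674 and 584). At 5w the DEN30/PB livers had 2125, 1484, 1734 and 2293, again above the MC/PB livers, whose highest was 1354. The difference was 1.48 ± 0.40 at 10w (interval 0.67 to 2.28, adjusted p = 0.503 in limma) and 1.01 ± 0.28 at 5w (interval 0.44 to 1.58, adjusted p = 0.255). At 10w it passed where only these groups were fitted (adjusted p = 0.0478). Of all genes, 0.0284% were called for DEN30 at 10w and 0.114% at 5w. Fmo1 averaged 1956 ± 720 at 10w and 1909 ± 368 at 5w in DEN30/PB (SD, n = 4), against 1439 ± 303 and 2130 ± 521 in MC/water (SD, n = 4).

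The other initiated groups spread widely between animals at 10w. At 10w DEN3/PB livers had 2073, 1161, 811, 679 and 1833 units of Fmo1, TAA/PB livers 2219, 612, 1660, 2050 and 583, MP/PB livers 1271, 1082, 666, 582 and 548, and APAP/PB livers 840, 1541, 1801 and 728. Each of these 4 groups held livers inside the MC/PB range of 546 to 850 as well as livers above it. Their differences from MC/PB at 10w were 0.85 ± 0.38, 0.88 ± 0.38, 0.25 ± 0.38 and 0.78 ± 0.40 for DEN3, TAA, MP and APAP, with adjusted p between 0.83 and 1. At 5w DEN3/PB livers had 1624, 1882, 1761, 1214 and 2431 units, TAA/PB livers 2628, 655, 1678, 1313 and 1130, MP/PB livers 1387, 1029, 947, 1398 and 1089, and APAP/PB livers 1346, 1063, 1628 and 986. All 4 groups overlapped the MC/PB range of 654 to 1354 at 5w. The 5w differences were 0.90 ± 0.26, 0.53 ± 0.26, 0.32 ± 0.26 and 0.41 ± 0.28 in the same order, with adjusted p between 0.379 and 0.889. The percentages of all genes called were 0.019%, 0.00948%, 0.0853% and 0.0664% at 10w, and 0.0381%, 0.0191%, 0.0572% and 0% at 5w. In the APAP comparison at 5w, limma called 0 genes after adjustment and 755 had an unadjusted p under 0.05. The coefficient of variation of Fmo1 at 10w was 36.8% to 54.9% in the 5 initiated groups, against 20.4% in MC/PB and 21.1% in MC/water. At 5w it was 49.9% in TAA/PB and 17.9% to 24.8% in the other initiated groups, against 30.8% in MC/PB and 24.5% in MC/water.

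All 5 of those differences share the MC/PB animals, which had the lowest mean Fmo1 of the 7 groups at each week, so they are not independent of each other or of the phenobarbital comparison. A single contrast of the 5 initiated groups against MC/PB, added after these values were seen, gave 0.85 ± 0.30 at 10w (adjusted p = 0.803) and 0.63 ± 0.21 at 5w (adjusted p = 0.454). Of all genes, 0.00948% were called in this contrast at 10w and 0% at 5w, where 649 genes had an unadjusted p under 0.05. Against MC/water the same 5 groups differed by -0.24 ± 0.30 at 10w (interval -0.86 to 0.38) and by -0.52 ± 0.21 at 5w (interval -0.95 to -0.09, adjusted p = 0.193), where 8.88% and 4.44% of all genes were called. Between the doses of diethylnitrosamine, DEN30/PB minus DEN3/PB, Fmo1 differed by 0.63 ± 0.38 at 10w and 0.11 ± 0.26 at 5w, and neither passed. Of all genes, 0% were called between the doses at 10w, with 450 at an unadjusted p under 0.05, and 0.00953% at 5w.

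**Figure D2:**
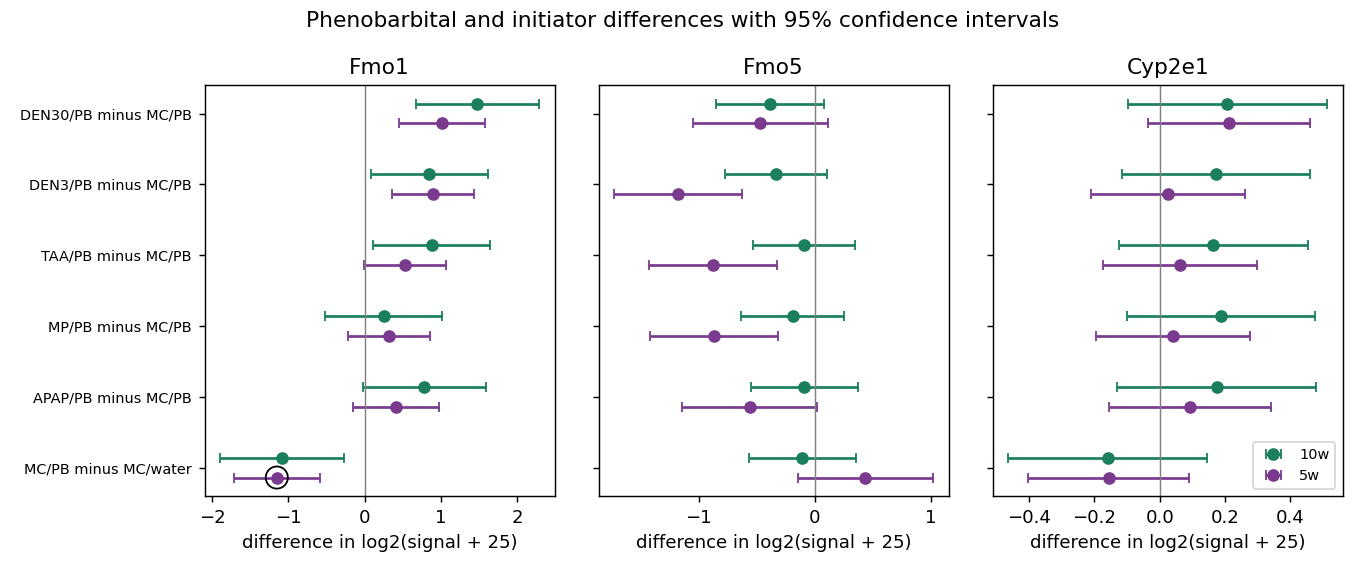
Differences in log2(signal + 25), as points, with 95% confidence intervals from limma, for each initiator under phenobarbital against MC/PB and for MC/PB against MC/water, at 10w and 5w. The ringed point is the only one with an adjusted p under 0.05, where Fmo1 fell by 1.15 in MC/PB at 5w; the horizontal axes differ between genes, and the Cyp2e1 axis is the narrowest.

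Fmo5 was higher in the terminal liver than in the hepatectomy piece in 31 of 31 animals. The change within an animal, 10w minus 5w, was between 0.12 and 1.79 log2 units, with a median of 1.03. In MC/water livers, which had no phenobarbital, Fmo5 had 9434, 13259, 10313 and 10967 signal units at 10w, against 4360, 8442, 4739 and 5193 at 5w. In MC/PB livers it had 8447, 12197, 8066 and 12725 at 10w, against 7528, 8300, 5605 and 8736 at 5w. The weeks did not overlap in MC/water and did overlap in MC/PB. In DEN3/PB livers it had 10676, 9453, 4222, 9544 and 8241 at 10w, against 4373, 4491, 1701, 3495 and 3265 at 5w. In TAA/PB livers it had 9821, 11488, 8538, 7112 and 11373 at 10w, against 5430, 4588, 2447, 3201 and 5545 at 5w. In MP/PB livers it had 10763, 10568, 6887, 7950 and 8916 at 10w, against 4639, 3891, 2837, 5027 and 4376 at 5w. The weeks were apart in TAA/PB and MP/PB, and in DEN3/PB only replicate 3, the lowest animal at both weeks, kept them from being so. In DEN30/PB livers it had 10280, 5805, 6740 and 9109 at 10w, against 6096, 4070, 3973 and 8406 at 5w. In APAP/PB livers it had 8399, 12339, 9339 and 8562 at 10w, against 4869, 6884, 4953 and 3902 at 5w. The weeks overlapped in DEN30/PB and were apart in APAP/PB. The share of all genes whose weeks were apart was not counted.

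Between the weeks, Fmo5 rose by 1.29 ± 0.24 in DEN3/PB (2.44-fold, adjusted p = 0.000864 in limma), by 1.23 ± 0.24 in TAA/PB (2.34-fold, adjusted p = 0.00152) and by 1.12 ± 0.24 in MP/PB (2.17-fold, adjusted p = 0.00604). The differences of 0.99 ± 0.27 in MC/water (adjusted p = 0.135) and 0.92 ± 0.27 in APAP/PB (adjusted p = 0.0636) did not pass, and both passed with the animal as a replicate block, with adjusted p of 0.0047 and 0.00259. In MC/PB the difference was 0.45 ± 0.27 and in DEN30/PB 0.53 ± 0.27, and neither passed with or without the block. Of all genes, 0% were called between the weeks in DEN30/PB (874 at an unadjusted p under 0.05), 2.89% in DEN3/PB, 1.77% in TAA/PB, 1.34% in MP/PB, 1.47% in APAP/PB, 1.31% in MC/PB and 0.0458% in MC/water. With the animal as a block the numbers of called genes were 159, 960, 655, 535, 691, 528 and 155 in the same order. The mean of the 7 changes, a contrast added after these values were seen, was 0.93 ± 0.10 for Fmo5 (1.91-fold, interval 0.74 to 1.13, adjusted p = 7.12e-11), where 24.7% of all genes were called. It was 0.99 within array set 1 and 0.88 within array set 2. Age, regrowth after hepatectomy, weeks of phenobarbital and the way of sampling differ together between the weeks and cannot be told apart, except that MC/water animals had no phenobarbital.

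Fmo1 moved the other way over the same weeks. It was lower at 10w in 25 of 31 animals, among them 4 of 4 MC/PB and 4 of 4 MC/water animals, with a median change of -0.33 and a range from -1.23 to 0.63. No single treatment passed. The mean of the 7 changes was -0.34 ± 0.13 (interval -0.59 to -0.08), with an adjusted p of 0.0474 in limma, which lies at the threshold. Leaving out 1 array removed the call in 35 of 62 cases. With the animal as a block the adjusted p in limma was 0.00665, and 3718 of 10910 genes were called in that fit. Cyp2e1 was higher at 10w in 24 of 31 animals, and its mean change of 0.10 ± 0.05 (interval -0.01 to 0.20, adjusted p = 0.171) did not pass. With the animal as a block its adjusted p in limma was 0.0514. Under quantile normalization, without that block, its adjusted p in limma was 0.0199, and 2789 genes were called. In the main fit of this contrast 24.7% of all genes were called, and the median over all genes was 0.00. Of 7 endothelial markers on the tested list, 5 were lower and 0 higher, with a median of -0.25. Of 9 stellate cell and fibroblast markers, 5 were lower and 1 higher (Rgs5), with a median of -0.21. The summed endothelial signal lay between 7455 and 10361 at 10w and between 8919 and 12660 at 5w, the summed stellate and fibroblast signal between 7206 and 13812 at 10w and between 6908 and 13708 at 5w, and no marker of either list was under 100 on every array. Hepatocyte markers were lower for 3 of 9 (Fga, Fgb and Cps1), with differences of -0.08, -0.11 and -0.11. In this contrast 1311 of 10910 genes were lower and 1382 higher. Of 5 lymphocyte and blood markers tested, the beta-globin Hbb fell by 0.90 ± 0.11 (adjusted p = 1.54e-09), and the summed signal of that list lay between 7803 and 22591 at 10w and between 7074 and 34373 at 5w. Of 4 biliary and progenitor markers tested, Epcam rose by 0.36 ± 0.08 and Spp1 fell by 0.43 ± 0.12, and 0 of 7 macrophage and 0 of 6 dividing cell markers were called. The part of these markers in the changes of Fmo5 and Fmo1 was not tested.

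**Figure D3:**
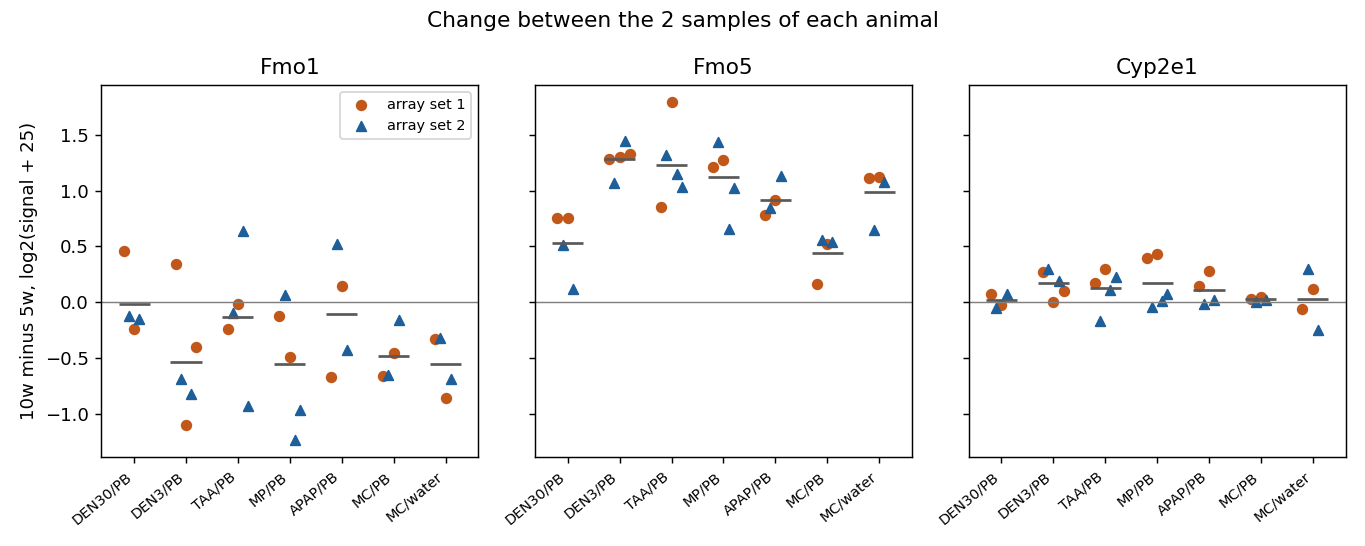
Change of each animal between its samples, 10w minus 5w, in log2(signal + 25), for Fmo1, Fmo5 and Cyp2e1 by treatment. Each point is 1 animal (circles array set 1, triangles array set 2) and bars are treatment means; all 31 Fmo5 points are above 0, 25 of 31 Fmo1 points are below it and the Cyp2e1 points lie between -0.25 and 0.43.

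At hepatectomy, Fmo5 had its highest mean in MC/PB and lower means in all the initiated groups. The MC/PB livers at 5w lay between 5605 and 8736, above every one of the DEN3/PB livers (1701 to 4491), the TAA/PB livers (2447 to 5545) and the MP/PB livers (2837 to 5027). The DEN30/PB livers (3973 to 8406) and the APAP/PB livers (3902 to 6884) overlapped them. The share of all genes apart in these comparisons was not counted. In limma, 0.0381%, 0.0191% and 0.0572% of all genes were called at 5w for DEN3, TAA and MP. For DEN30 and APAP it was 0.114% and 0%. The differences from MC/PB were -1.17 ± 0.27 for DEN3 (interval -1.72 to -0.62, adjusted p = 0.0936), -0.87 ± 0.27 for TAA (adjusted p = 0.499), -0.86 ± 0.27 for MP (adjusted p = 0.334), -0.56 ± 0.28 for APAP and -0.47 ± 0.28 for DEN30, and none passed without a block. With the replicate number as a block, DEN3 passed (-1.22, adjusted p = 0.0235 in limma), although the same number names different animals in different treatments. That number also follows the array set, apart from replicate 5. These 5 differences share the MC/PB animals, whose own difference from MC/water at 5w was 0.44 ± 0.28 (interval -0.14 to 1.02). Against MC/water, the 5 initiated groups differed by -0.35 ± 0.22 at 5w (interval -0.80 to 0.10). At 10w the initiator differences of Fmo5 were smaller in size, between -0.38 for DEN30 and -0.09 for TAA and APAP, and MC/PB differed from MC/water by -0.11 ± 0.23. The change of the initiator effect between the weeks was 0.84 ± 0.36 for DEN3, 0.78 ± 0.36 for TAA and 0.67 ± 0.36 for MP, with an adjusted p of 1 for each. For Fmo5, DEN30/PB minus DEN3/PB was -0.05 ± 0.22 at 10w and 0.70 ± 0.27 at 5w (adjusted p = 0.795).

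No effect of phenobarbital or of an initiator was called as different between the weeks for any of the 3 genes, with or without the animal as a block. Without the block, limma called 0% of 10910 genes in each of these 6 contrasts, and between 216 (DEN30) and 492 (phenobarbital) genes had an unadjusted p under 0.05. With the animal as a replicate block it called 7 genes for phenobarbital, 1 each for TAA, MP and APAP, and 0 for DEN30 and DEN3.

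Cyp2e1 stayed within a narrow band in all 14 groups. None of its comparisons passed, save the mean change between the weeks under quantile normalization. MC/PB livers had 31153, 32571, 33121 and 30104 signal units at 10w, against 33729, 36687, 38160 and 33342 in MC/water livers. At 5w MC/PB livers had 30432, 32512, 31950 and 29676, against 35146, 29761, 35012 and 39538 in MC/water livers. The groups did not overlap at 10w, where every MC/PB liver was lower, and overlapped at 5w. In this comparison 2.26% of all genes were called at 10w and 1.26% at 5w, and the share apart was not counted. The difference was -0.16 ± 0.15 at 10w (interval -0.46 to 0.14, adjusted p = 0.714) and -0.16 ± 0.12 at 5w (interval -0.40 to 0.09, adjusted p = 0.72). The differences of the initiated groups from MC/PB were all above 0, between 0.16 for TAA and 0.21 for DEN30 at 10w and between 0.03 for DEN3 and 0.21 for DEN30 at 5w, and they share those MC/PB animals. The highest upper bound of their 95% intervals was 0.51, for DEN30 at 10w. Against MC/water, the 5 initiated groups differed by 0.02 ± 0.11 at 10w and by -0.07 ± 0.09 at 5w. The MC/PB groups also had the most even values, with SDs of 1369 units at 10w and 1314 at 5w. DEN3/PB at 5w was nearly as even, with an SD of 1443. In contrast, MP/PB livers lay between 30712 and 49518 at 10w and TAA/PB livers between 24961 and 46632. The deposited values carry no mark of saturated probes, so compression at the Cyp2e1 level was not tested.

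In order of group means, Cyp2e1 ran from DEN30/PB at 10w (mean 15.16 on the log2 scale) down to MC/PB at 5w (14.93), and no neighbours differed by more than the larger of their SDs. Fmo1 ran from MC/water at 5w (11.04), DEN30/PB at 5w (10.90) and DEN30/PB at 10w (10.88) down to MC/PB at 5w (9.89), MP/PB at 10w (9.66) and MC/PB at 10w (9.41), again with no such gap. In Fmo5 all 7 groups of 10w came first, from MC/water (13.42) to DEN30/PB (12.93), then MC/PB at 5w (12.87). The next step, down to MC/water at 5w (12.43), was the only one larger than both SDs, and the 3 lowest were MP/PB (12.00), TAA/PB (11.99) and DEN3/PB (11.69), all at 5w.

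With both array sets pooled, animals that were high in a member at hepatectomy tended to be high in it at the end. Deviations from the group mean at 10w and at 5w correlated over 31 animals at r = 0.82 for Fmo5 (rho = 0.76, adjusted permutation p = 0.00027 and 0.00036), r = 0.70 for Cyp2e1 (rho = 0.65, 0.00315 and 0.00354) and r = 0.65 for Fmo1 (rho = 0.58, 0.00324 and 0.00747). Animals were permuted within their treatment, two-sided, and p-values were adjusted over 9 relations. The permutation crossed the array sets, so these p-values also take in any difference in level between the sets. Without the 2 animals farthest from the median, r was 0.78, 0.68 and 0.54. Within the sets, deviations were taken from the mean of the 2 or 3 animals of a group in that set. These r and the pooled r are therefore unlike measures, and fewer values are free than animals. Within array set 1 (15 animals) r was 0.87, 0.91 and 0.55, and within array set 2 (16 animals) 0.78, 0.60 and 0.48. The relation of Fmo1 passed in neither set, and those of Fmo5 and Cyp2e1 passed in set 1 only. Both arrays of an animal fell into the same set, and the sets differed in level: set 2 minus set 1 averaged -0.36 for Fmo1, 0.21 for Fmo5 and -0.12 for Cyp2e1 at 10w, and -0.30, 0.32 and -0.02 at 5w.

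**Figure D4:**
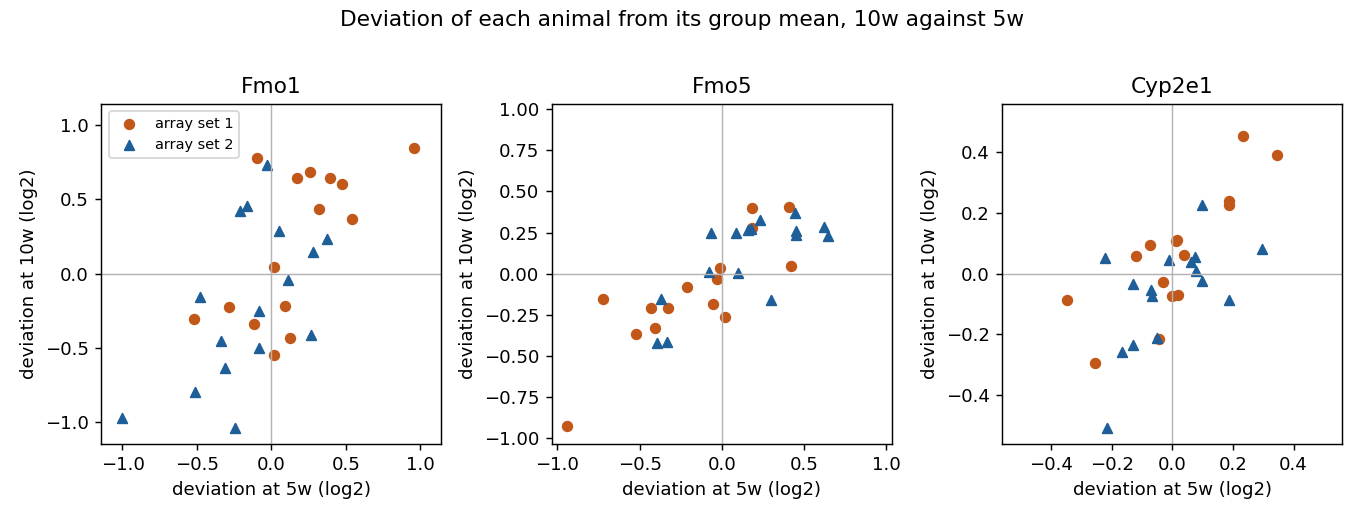
Deviation of each animal from its group mean in log2(signal + 25), at 10w (vertical) against 5w (horizontal), for Fmo1, Fmo5 and Cyp2e1. Each point is 1 of 31 animals, circles for array set 1 and triangles for array set 2; the points rise from lower left to upper right in each panel, with r = 0.65, 0.82 and 0.70 from left to right.

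Between members, animals with more Cyp2e1 for their group also had more Fmo1 at 10w, with r = 0.63 and rho = 0.65 (adjusted permutation p = 0.00436 and 0.00354), and r = 0.54 without the 2 farthest animals. The same pair gave r = 0.44 at 5w (rho = 0.32), which did not pass (adjusted p = 0.053 and 0.206). With deviations taken from the mean of group and set, its r at 10w was 0.65 in array set 1 and 0.72 in set 2. The adjusted permutation p were 0.152 and 0.219. The pairs with Fmo5 did not pass at either week: at 10w r was 0.20 with Fmo1 and 0.26 with Cyp2e1, and at 5w 0.12 and 0.19. These pooled values differ from those within the sets at 10w: Fmo1 with Fmo5 gave r = 0.89 in set 1 (adjusted p = 0.0132) and -0.07 in set 2 (adjusted p = 0.997), and Cyp2e1 with Fmo5 gave 0.76 in set 1 (adjusted p = 0.0705) and 0.00 in set 2. At 5w Cyp2e1 with Fmo5 gave 0.65 in set 1 and -0.31 in set 2, and neither passed. Over the 14 group means, which share animals between the weeks, r was 0.32 between Cyp2e1 and Fmo1, 0.49 between Cyp2e1 and Fmo5 and -0.46 between Fmo1 and Fmo5.

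Of the other flavin-containing monooxygenases, Fmo4 was tested and gave no call. It passed in none of the comparisons, with differences between -0.41 and 0.24, and its better-measured probe set lay between 211 and 515 signal units. Fmo2 reached at most 112 units and was not tested. At the phenobarbital step, Fmo4 differed by -0.41 at 10w and -0.11 at 5w.

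Among the genes that serve microsomal oxidases with electrons and haem, 3 of 11 rose in MC/PB against MC/water at 10w and 0 fell, with a median of 0.34. These were Por, the reductase that feeds P450 enzymes, by 1.39 ± 0.26, Alas1, the rate-limiting enzyme of haem synthesis, by 1.09 ± 0.23, and Cyb5a by 0.34 ± 0.08. At 5w 1 of 11 rose, Por by 0.97 ± 0.25, with a list median of 0.23. The median over all genes was -0.01 at 10w and 0.00 at 5w. In the same comparison 2.26% of all genes were called at 10w (168 higher, 70 lower) and 1.26% at 5w (88 higher, 44 lower). Of the genes chosen as known phenobarbital targets, 9 of 10 tested rose at 10w and 10 of 10 at 5w, with medians of 2.83 and 2.55; the list was drawn up with their response in these data known. Of 18 other genes that metabolise the initiators, 3 rose at 10w (Gstm1 by 0.57, Gstt1 by 0.57 and Cyp2a1 by 1.12), and of 17 tested at 5w, 2 rose (Gstm1 by 0.39 and Cyp3a9 by 1.58). None of 9 tested genes of ethanol, aldehyde and peroxide oxidation was called at either week, with medians of 0.03 at 10w and 0.07 at 5w.

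Genes that share the perivenous position of Cyp2e1 had a median difference of -0.31 at 10w and -0.34 at 5w between MC/PB and MC/water, against -0.01 and 0.00 over all genes. Of 17 tested, 1 rose and 1 fell in MC/PB against MC/water at 10w: Aldh1a1, also on the list of phenobarbital targets, which rose, and the ornithine aminotransferase Oat, which fell by 1.69 ± 0.43. Of all genes, 2.26% were called at 10w and 1.26% at 5w. At 5w Aldh1a1 rose by 4.08 ± 0.32 and 3 genes fell: Oat fell by 0.94 ± 0.23, the glutamine synthetase Glul fell by 0.79 ± 0.19 and the transporter Slc13a3 fell by 1.33 ± 0.28. Of 17 periportal genes, 0 were called at 10w and 2 were lower at 5w, where Sds, which breaks down serine, fell by 1.38 ± 0.33 and the gluconeogenic enzyme Pck1 fell by 0.73 ± 0.15. Of 16 transcription factors of liver oxidases, 0 were called at 10w and 1 was lower at 5w, where Hnf4a, a master regulator of hepatocyte genes, fell by 0.56 ± 0.12. Of 9 male-biased genes, 1 was lower at 10w, where the lipocalin Obp3 fell by 2.56 ± 0.56, and none was called at 5w; of the female-biased genes, 1 of 7 rose at 10w (Cyp2a1) and 1 of 6 at 5w (Cyp3a9). Among the cell type markers, Epcam of the biliary and progenitor list rose by 1.26 ± 0.24 at 10w and 0.81 ± 0.15 at 5w, and no marker of the hepatocyte, macrophage, stellate, endothelial, blood or dividing cell lists was called at either week. The summed biliary and progenitor signal was 1429 to 2288 in MC/PB and 803 to 1312 in MC/water livers at 10w, and 1215 to 1708 and 896 to 1121 at 5w; Krt7 stayed under 100 on every array, and the part of this in the Fmo1 difference was not tested.

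The genes whose 14 group means followed each member most closely were found among 10909 others by Pearson's r, as a description. For Fmo1 these were Usp12, a deubiquitinase (r = 0.92), Ncoa4 (0.86), Chek1, a checkpoint kinase (0.84), Celf1 (0.84) and Fgfr1 (0.84), and the most opposite were Mmadhc (-0.86), Alg5 (-0.85) and Dsc2 (-0.84). For Fmo5 they were the nuclear export receptor Xpo1 (0.91), Kifap3 (0.91), Lmtk2 (0.91), Tmem150c (0.90) and Iftap (0.89), against Fam210b (-0.91), Mbd6 (-0.91) and Ets1 (-0.91). For Cyp2e1 they were Riox1 (0.90), Tagln2 (0.87), Pde4dip (0.84), Armcx3 (0.84) and Zbtb40 (0.82), against Mylk3 (-0.88), Ifgga2l1 (-0.88) and Meis1 (-0.88). Over the 62 single arrays r was 0.20 for Usp12 with Fmo1, 0.44 for Xpo1 with Fmo5 and 0.37 for Riox1 with Cyp2e1. It had the opposite sign there for Zbtb40 (-0.05) and Mylk3 (0.04) with Cyp2e1.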

How the data were processed

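Total RNA of 62 rat liver samples was hybridised to Affymetrix arrays (model not given in the sources used here). What the authors deposited are linear signal intensities, and MAS5 5.0 is the tool that the submitters' processing notes name. Groups, doses and weeks were taken from the labels. Of 31099 probe sets, 20826 had 1 gene symbol in the platform annotation, covering 14217 genes; 436 had several and 9780 none, and only those with 1 symbol were tested by gene.

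Levels were taken as log2(signal + 25). Probe sets with a signal of 100 or more on at least 4 arrays were kept and the one with the highest mean was used per gene, giving 10546 tested genes for 10w, 10491 for 5w and 10910 for both weeks. Contrasts were fitted with limma 3.58.1 in R 4.3.3 (lmFit, eBayes with trend), on the 31 arrays of a week, or on all 62 for changes between weeks, two-sided, with Benjamini-Hochberg adjustment over all genes and a threshold of 0.05. Fold changes are on the log2(signal + 25) scale, which understates changes of low genes. The procedure was tested on simulated data. Correlations used 100000 permutations.

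The members and gene lists were chosen with earlier results of these data known. From each list the called genes with the smallest p were named, up to 4 a list and comparison, and for each member the 5 genes most like it and the 3 most opposite over group means. The labels state that both weeks came from the same animal. Residuals of an animal's samples correlated at 0.21 to 0.39 in all 31 pairs. Among arrays of the same treatment at the other week, all 62 were closest to the one of their own number. The same number in other treatments of a week had a median r of 0.115, and other animals of the treatment at the other week -0.096. Replicates 1 to 4 of the same number were also in the same array set, and the part of the sets in these r was not tested. The match by number therefore cannot by itself show the pairing. The animal was used as a replicate block, as an alternative.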

Additional observations from a re-analysis of the deposited data

Results flagged for a closer look

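Of 42 groups (3 genes in 14 groups) examined for a sample far from the others, 1 stood out, where chance alone gives about 1 in 20. It was the Fmo5 signal of DEN3/PB replicate 3 at 10w, 4222 units, against 8241 to 10676 in the other DEN3/PB animals of that week. The same animal was the lowest of its group at 5w, with 1701 units.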

How the results depend on the processing

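For 105 results there were 2253 alternative values: no offset, no filter on low signals, every probe set in place of 1 per gene, quantile normalization, replicate or animal blocks, the array sets, only the groups compared, and each sample left out. Of these, 2185 kept their side of the threshold, 57 lost the call, 11 gained it and 0 reversed a called value. Among the 2185, 92 changed sign with no call on either side. With only the groups compared, Fmo1 passed for phenobarbital (-1.08) and for DEN30 (1.48) at 10w, and the Fmo5 change in APAP/PB passed (0.92). Within array set 1 these lost the call: Fmo1 under phenobarbital at 5w (-0.66), the Fmo5 changes in DEN3/PB (1.30), TAA/PB (1.32) and MP/PB (1.24), the mean Fmo1 change (-0.30), and the correlations of Fmo1 between weeks (0.55) and of Cyp2e1 with Fmo1 at 10w (0.65). Fmo1 with Fmo5 at 10w gained one in set 1 (r = 0.89), against -0.07 in set 2. Within array set 2 the losses were the Fmo5 changes in DEN3/PB (1.26) and MP/PB (1.04), the mean Fmo1 change (-0.37), and the correlations between weeks of Cyp2e1 (0.60), Fmo1 (0.48) and Fmo5 (0.78) and of Cyp2e1 with Fmo1 at 10w (0.72); each set holds fewer samples. With the replicate number as a block within a week, Fmo5 passed for DEN3 at 5w (-1.22). That number names different animals and, save for replicate 5, follows the array set. The same number in other treatments correlated above 0.1 in 99 of 168 pairs. With the animal as a replicate block, the Fmo5 changes in APAP/PB (0.92) and MC/water (0.99) passed, and no other call of the 3 genes changed. The Fmo5 change in APAP/PB also passed under quantile normalization (0.96) and with the array set as a block (0.92), and so did the mean Cyp2e1 change under quantile normalization (0.14). The mean Fmo1 change, -0.34, lost the call with no filter (-0.34) and with all probe sets (-0.34), where more tests were adjusted for. Leaving out 1 sample gave -1.33 to -0.99 for Fmo1 under phenobarbital at 5w, -0.37 to -0.30 for the mean Fmo1 change, and 0.79 to 1.07 for the Fmo5 change in APAP/PB, which passed only without APAP/PB replicate 2 at 5w. The causes of these shifts were not tested.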
